A study of Mus musculus with 12 samples.

Results

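The let-7 family was examined in 12 small RNA libraries of the mouse hippocampus. It comprises let-7a, let-7b, let-7c, let-7d, let-7e, let-7f, let-7g, let-7i and miR-98. These 9 names, made from 12 annotated hairpin loci, were chosen by name, and a sequence tag was counted for a member only if it matched 1 of its hairpins exactly over its whole length. They are 9 of the 706 miRNA names with at least 1 exact count. Each library came from the hippocampus of an individual male C57BL/6NCrl mouse, a wild-type inbred strain, aged 6 to 8 weeks. The mice were either untreated or killed 0.5 h, 1 h, 3 h, 6 h or 24 h after electroconvulsive shock (ECS), a brief seizure that drives neuronal activity throughout the hippocampus. One complete series of 6 libraries, the first time course, was followed by a biological replicate of all 6, the second time course. Every time point therefore had n = 2 and every time course n = 6, and the whole tissue was used, so fewer cells of a type and less of an RNA per cell cannot be told apart.

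let-7 miRNAs are cut from hairpin precursors by Drosha and Dicer and loaded into Argonaute, where bases 2 to 8 of the RNA, the seed, select the mRNAs to be repressed. The family accumulates as cells leave the proliferating state and is abundant in adult brain. The RNA-binding protein Lin28 holds the precursors back in stem cells, and terminal uridylyl transferases can add uridine to the 3′ end of a let-7 precursor, the end that becomes the 3′ arm.

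The mature 5′ arms (5p) are shown because the members differ by so few bases that the length of a tag decides which member it can be assigned to. The seed is in capitals, and the sequences are those of RefSeq for GRCm38.p6.
let-7a-5p: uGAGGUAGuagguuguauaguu
let-7b-5p: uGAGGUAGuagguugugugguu
let-7c-5p: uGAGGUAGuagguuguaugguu
let-7d-5p: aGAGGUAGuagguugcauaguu
let-7e-5p: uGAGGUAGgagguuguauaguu
let-7f-5p: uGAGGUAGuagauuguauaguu
let-7g-5p: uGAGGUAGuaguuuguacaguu
let-7i-5p: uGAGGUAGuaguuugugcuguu
miR-98-5p: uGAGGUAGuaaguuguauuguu

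All 9 members shared the seed and the length of 22 nt, and no correction for length was made between them. Tags shorter than 18 nt were not counted, and members differed in how much of their counts lay at that limit. In the untreated library of the first time course, 80.3% of let-7e and 1.79% of let-7g counts were of 18 nt. The effect of this limit on the comparison of members was not tested. Of the 36 pairs of members, 4 differed by a single base and 10 by 2 bases. With positions counted from 1 at the 5′ end and U written as T, let-7a differed from let-7c by A19G, from let-7e by T9G and from let-7f by G12A, and let-7b differed from let-7c by G17A. A tag that stops at base 18 therefore cannot distinguish let-7a from let-7c, and its counts were split equally between them. This shared tag is shown for that reason, with the seed in capitals.
let-7a and let-7c, first 18 nt: tGAGGTAGtaggttgtat
It was counted 34373 times in the first time course and 2748 times in the second. let-7k and miR-1961 also carry the seed. let-7k was counted 416 times in all, 402 of them in the first time course, and miR-1961, annotated at 17 nt, was shorter than the shortest tag counted.

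The hairpins lie in 8 places of the genome (GRCm38, GENCODE M21). let-7a-1 (chr13:48538179-48538272), let-7f-1 (chr13:48537829-48537917) and let-7d (chr13:48536012-48536114) lie together on the minus strand in exons of the long noncoding RNA gene 6720427I07Rik. let-7f-2 (chrX:151912346-151912428) and miR-98 (chrX:151913214-151913321) are 786 bp apart within introns of Huwe1, which encodes a ubiquitin ligase. let-7c-2 (chr15:85706603-85706697) and let-7b (chr15:85707319-85707403) lie in exons of the noncoding transcript Lncppara. Other loci sit near members of the miR-99/100 family. let-7a-2 (chr9:41536716-41536811) is 5212 bp from miR-100, let-7c-1 (chr16:77599657-77599750) is 657 bp from miR-99a in an intron of Mir99ahg, and let-7e (chr17:17830352-17830444) is 95 bp from miR-99b in an intron of Spaca6. let-7g (chr9:106178840-106178927) lies in an intron of Wdr82, and let-7i (chr10:122985640-122985724) in an exon of the transcribed pseudogene D630033A02Rik. Where a member has 2 loci, the mature 5p sequence is the same from both and could not be assigned to one of them.

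The files held 1897490 to 7657222 accepted reads per library, of which 439362 to 4282033 were exact miRNA counts. The authors' published read counts give the untreated library numbered 1 more known miRNA reads than the one numbered 2. In the deposited data the order was the reverse, with 1067773 and 4282033 exact miRNA counts. The deposited labels were followed here, and the reason for the difference was not tested. The untreated library of the first time course stood apart, with 51.4% of its miRNA counts in tags of 18 or 19 nt. The other 5 libraries of that time course had 4.54% to 16.9% and the 6 of the second time course 0.911% to 3.78%. The 3 neuronal miRNAs checked (miR-124-3p, miR-128-3p and miR-9-5p) were present in every library and made up 5.69% to 30.3% of miRNA counts, lower in the second time course at 6 of 6 time points. The 3 vessel miRNAs (miR-143-3p, miR-145a-5p and miR-126a-3p) made up 6.27% to 14.4% in the first time course and 0.556% to 1.64% in the second. The 3 blood miRNAs summed to 0.0167% to 0.192% in the first and 0.00495% to 0.0152% in the second, with miR-142-3p at 0 in 7 of 12 libraries. The 2 oligodendrocyte miRNAs summed to 0.00846% to 0.0239% over the 12 libraries. Over the same libraries, the 2 muscle miRNAs were higher in the second time course at 5 of 6 time points (means 0.737% and 1.13%), the liver miRNA miR-122-5p at 4 of 6 and the oligodendrocyte miRNAs at 3 of 6. The vessel and blood sums thus divided the libraries into the same 2 time courses as the let-7 results that follow. The neuronal sums overlapped, at 12.1% to 30.3% in the first and 5.69% to 16.1% in the second. The part of these markers in the let-7 results was not tested.

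Members of the family were among the most abundant miRNAs of the hippocampus. The 9 5p arms together made up 12.04% to 25.02% of miRNA counts in the first time course (median 19.6%), and their mean was 19.5% ± 5.27 (SD, n = 6). In the second they made up 44.4% to 64.04%, with a median of 50.3% and a mean of 53.3% ± 8.25 (SD, n = 6). The time courses did not overlap. This was not particular to the family, since the vessel and blood sums did not overlap either. For this and the statements of overlap below, the share of all arms without overlap is not given. As a percent of all accepted reads, the whole family amounted to 5.23% ± 2.37 (SD, n = 6) at first and to 30.6% ± 5.48 (SD, n = 6) in the replicate. Most of this was let-7f, let-7g and let-7c, which held 76.3% to 86.6% of the family's 5p counts in the first time course and 87.5% to 93.8% in the second.

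let-7f, a member with 2 loci, ranked first in the family by its mean over the 12 libraries and took rank 1 to 6 among all miRNA arms. Its share ran from 5.17% through a median of 7.66% to 10.2% in the first time course and from 16.7% through 21.3% to 30.7% in the second. The lowest library of the second time course was above the highest of the first.
let-7g, with a single locus, held 1.31%, 3.798% and 5.23% (lowest, median and highest) in the first time course and 11.3%, 16.2% and 20.7% in the second. The time courses were again without overlap, and let-7g took rank 1 to 17 among all arms.
let-7c held 1.80%, 3.95% and 9.34% in the first time course and 5.74%, 8.995% and 12.3% in the second, so the time courses overlapped, although the second was higher at 6 of 6 time points. In both time courses the 24 h library was the highest and the 6 h library the lowest.

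The order of the 3 leading members depended on the time course. let-7f exceeded let-7g in 11 of 12 libraries, but let-7g exceeded let-7c in 1 of 6 libraries of the first time course and in 6 of 6 of the second. let-7c exceeded let-7a in 12 of 12 libraries. Next came let-7a, at 0.875% to 1.34% in the first time course and 1.21% to 3.17% in the second, and let-7i, at 0.582% to 0.939% and 0.936% to 2.61%. let-7a was above let-7i in 8 of 12 libraries, so their order did not hold across libraries. let-7b was at 0.369% to 0.535% and 0.305% to 0.794%, and let-7d at 0.241% to 0.455% and 0.378% to 0.996%. let-7b exceeded let-7d in 6 of 6 libraries of the first time course and 2 of 6 of the second. let-7e, alone of the 9 5p arms, had the lower value in the second time course for every time point, at 0.451% to 0.779% in the first and 0.230% to 0.387% in the second, without overlap. miR-98 was the rarest, at 0.00486% to 0.0174% and 0.0121% to 0.0173%, and its highest value in the first time course was that of the untreated library.

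**Figure D1:**
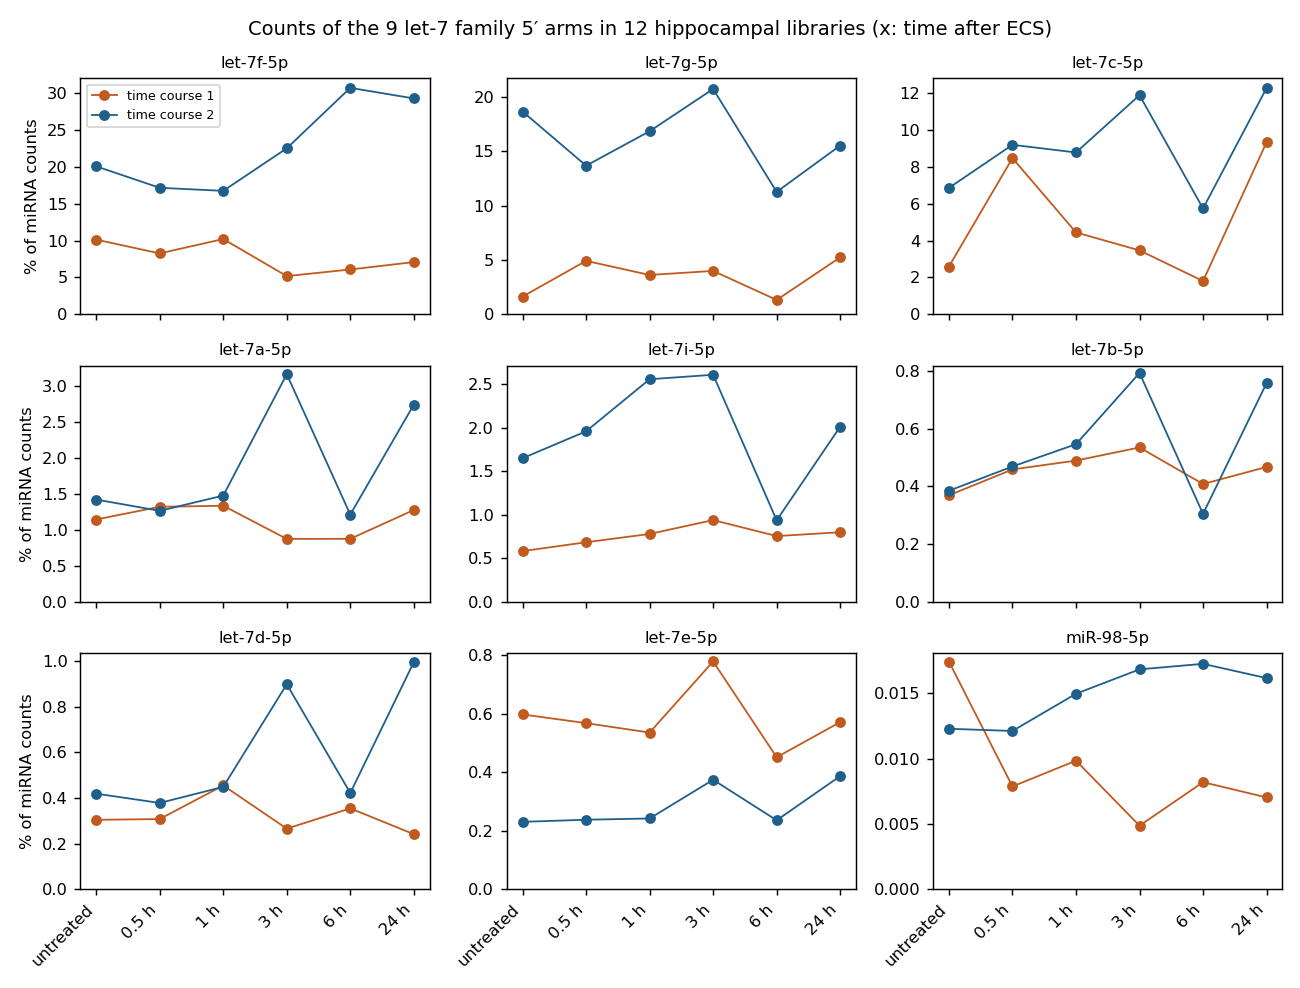
Percent of miRNA counts (y, linear, a scale of its own in each panel) of the 9 let-7 family 5p arms in the untreated library and at 5 times after ECS (x), with 1 point per library, joined within a time course. let-7f and let-7g lie higher in the second time course at every time point and let-7e lies lower, while the lines of let-7a, let-7b, let-7d and miR-98 cross.

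The comparison of the second with the first time course asks how reproducible the measurement of each member was. In the edgeR quasi-likelihood fit of all 470 arms that passed the count filter, with the time point as covariate, 92 arms (19.6%) were higher in the second time course and 59 (12.6%) lower at an adjusted p under 0.05. Of the 9 let-7 family 5p arms, all of which passed the filter, 7 were higher, none was lower, and let-7b and let-7e did not pass the test. The median log2 fold change of the 9 was 1.42, beside 0.29 over all arms. let-7g differed most, with a log2 fold change of 3.00 (SE 0.46, adjusted p = 0.0011), followed by let-7f at 2.16 (SE 0.39, adjusted p = 0.0020) and let-7i at 1.93 (SE 0.39, adjusted p = 0.0032). let-7c followed at 1.69 (SE 0.42, adjusted p = 0.0087). miR-98 at 1.42 (SE 0.47, adjusted p = 0.033), let-7d at 1.42 (SE 0.44, adjusted p = 0.025) and let-7a at 1.27 (SE 0.41, adjusted p = 0.030) were nearer to the threshold. For let-7b the fold change was 0.81 (SE 0.39, adjusted p = 0.12) and for let-7e -0.43 (SE 0.41, adjusted p = 0.42).

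The scaling of the libraries set how many members differed. The fit above used TMM scaling, which sets the bulk of the arms equal, and scaling to the total miRNA count instead moved the median of all arms from 0.29 to -0.30. The split of calls then changed to 49 higher and 114 lower, and 4 members were higher: let-7g (2.38), let-7f (1.55), let-7i (1.32) and let-7c (1.06). let-7e was at -1.06 on this scale, with an adjusted p of 0.052. Counting only tags of 21 nt or more, where every member is told from every other, left let-7f (2.25, adjusted p = 0.026), let-7g (2.02, adjusted p = 0.028) and let-7i (1.83, adjusted p = 0.033) higher. Of all 397 arms in that fit, 62 were higher and 38 lower, with a median log2 fold change of 0.48. let-7c was then at 0.04 (SE 0.67, adjusted p = 0.97) and let-7b at -0.31 (SE 0.66, adjusted p = 0.74). Without the untreated library of the first time course, 7 members remained higher, and let-7f, let-7g, let-7c and let-7i were higher in each of the 12 fits that left out 1 library. let-7a kept its call in 4, let-7d in 7 and miR-98 in 2 of those 12 fits. The count of members fell to 4 without either 3 h library, either 24 h library or the 1 h library of the second time course. Over the same 12 fits, 95 to 158 of all arms were called, beside 151 with all libraries. The count of 95 was without the 1 h library of the first time course.

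**Figure D2:**
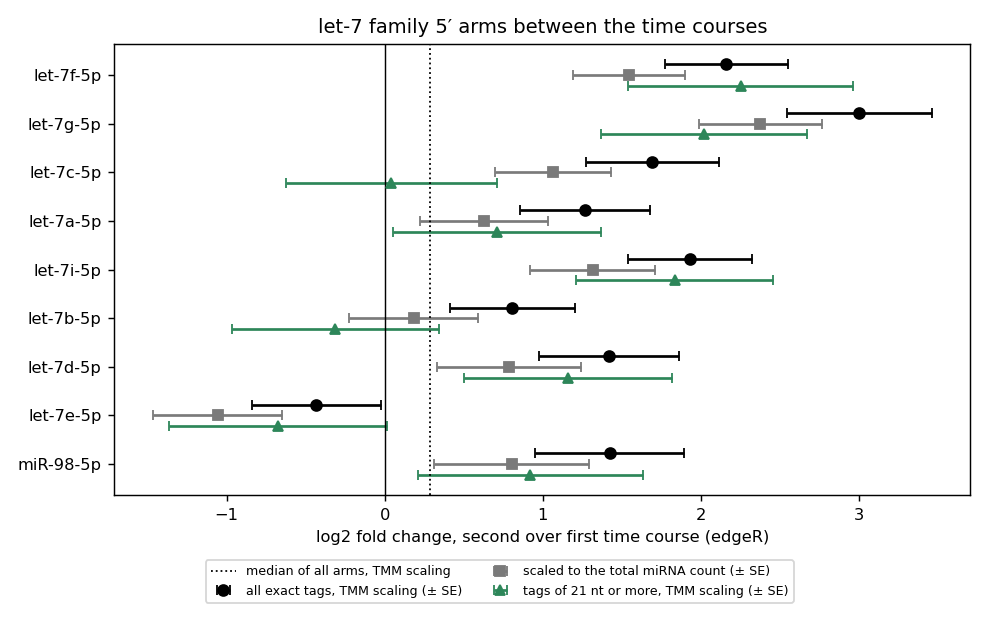
Log2 fold change (x, second over first time course, edgeR) with its SE (horizontal lines) for each let-7 family 5p arm (y), for all exact tags with TMM scaling (circles), for scaling to the total miRNA count (squares) and for tags of 21 nt or more (triangles); the dotted line is the median of all arms under TMM. let-7f, let-7g and let-7i lie above 1.3 in all 3 fits, and let-7e lies below 0 in all 3.

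In exact counts, the 3′ arms (3p), the strand that is mostly discarded, were rarer in the second time course. Together they made up 0.0133% ± 0.0035 (SD, n = 6) of miRNA counts in the first libraries and 0.00391% ± 0.0015 (SD, n = 6) in the later ones, without overlap. Of the 7 members whose 3p arm passed the filter, let-7a-3p (log2 fold change -2.52, SE 0.52, adjusted p = 0.0036, edgeR) and let-7c-3p (-2.16, SE 0.53, adjusted p = 0.0080, edgeR) were lower in the second time course, against 12.6% of all arms. The 3p arms of let-7a-1 and let-7c-2 have the same sequence, so these are not separate results. In the other 5 the fold changes ran from -1.51 to -0.05 without passing the test. Scaled to the total miRNA count, 5 of the 7 were lower, beside 114 of 470 arms and a median of -0.30 over all arms. These 5 included let-7a-3p and let-7c-3p, which are not separate results.

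The exact 5p counts exceeded the exact 3p counts of every member in both time courses, by a ratio that differed between them. Tags with an untemplated 3′ base, described below, were left out of it. The exact 3p counts were few, with 43 for let-7f and 40 for let-7g over the 12 libraries, so their ratios are imprecise. The ratio was 31110 in the first and 215007 in the second for let-7f, and 13932 and 227533 for let-7g. For let-7c it was 3514 and 36661, and for let-7a 710 and 10090. let-7i had 481 and 3469, let-7b 617 and 3031, let-7d 68.5 and 540, let-7e 267 and 239, and miR-98 22.6 and 72.2. let-7f, let-7g and let-7c had the highest ratios and miR-98 the lowest in both time courses. Within this order let-7f and let-7g changed places, as did let-7b and let-7i, and let-7d and let-7e. Among the 161 miRNA names, over the 12 libraries together, with at least 1000 counts on one arm and 3 on the other, the ratio of the larger to the smaller arm had a median of 59.8, and 27 names (16.8%) exceeded 1000.

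The comparison that the study was built for sets each time after ECS against the untreated hippocampus. In a fit of all 12 libraries with 6 groups, edgeR called 0 of the 470 arms at each time (0.0% each), and therefore none of the 9 let-7 family 5p arms. The time course was not a term of this fit, so differences between the time courses widened its SEs. At an unadjusted p under 0.05 it found 9, 2, 10, 9 and 8 arms in order of time, and no let-7 family 5p arm was among them. With the time course as a block, edgeR again called 0 arms at each time. At an unadjusted p under 0.05 the block fit found 27, 12, 24, 32 and 25 arms, with 1 let-7 family 5p arm among them, at 24 h. DESeq2 called 1 arm at 0.5 h, 2 at 3 h and 0 at the other times, none of them a 5p arm of the family.

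let-7c had the highest value of the 9 members at 0.5 h and 24 h, without passing the test. Its log2 fold changes in order of time were 0.88, 0.28, 1.24, 0.13 and 1.54, with SEs of 1.15 to 1.18. The adjusted p was 0.99 at 24 h in edgeR, and with the time course as a block the fold change there was 1.89, with an unadjusted p of 0.018 and an adjusted p of 0.66. In percent of miRNA counts, let-7c was below the untreated library at 6 h and above it at the other 4 times in both time courses. From an untreated level of 2.59% in the first time course and 6.86% in the second, the 24 h library stood 1.85 and 0.84 higher on the log2 scale.

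The values of let-7f and let-7g after ECS were less alike between the time courses. let-7f had fold changes from -0.37 (1 h) to 0.85 (6 h), with SEs of 1.28 to 1.29. In the first time course it was above its untreated level of 10.1% at 1 of 5 times, and in the second, above 20.1% at 3 of 5 times. let-7g had fold changes from -0.23 (6 h) to 0.73 (3 h), with SEs of 1.57 to 1.58. It was above the untreated level of 1.62% at 4 of 5 times in the first time course and above that of 18.7% at 1 of 5 times in the second. Among all 9 members the lowest fold change of any time was -0.37 (let-7f, 1 h) and the highest 1.54 (let-7c, 24 h), and let-7b reached 1.45 at 3 h. In this fit 9 of 9 were above 0 at 3 h and at 24 h, with medians of 1.19 and 0.80 beside 0.15 and 0.23 over all arms. Scaled to the total miRNA count, 7 and 8 of 9 were above 0. In percent of miRNA counts the second time course had 9 and 8 of 9 members above its untreated library at these times and the first had 5 and 5. With the time course as a block, the SEs were 0.68 to 0.71 for let-7c, 0.63 to 0.64 for let-7f and 0.71 to 0.74 for let-7g, so even there a log2 fold change of 1 was less than 2 SEs.

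The members' tags were shorter in the first time course. In 8 of 8 members (miR-98 had under 100 counts in some libraries), tags of 18 or 19 nt held less of the 5p counts in the second time course at each of the 6 time points. The same was found in 90 (81.1%) of the 111 arms that reached 100 counts in all libraries. The exact permutation test, which flips the libraries within time points (64 flips, two-sided), gave p = 0.03125 for each of the 8, the smallest it can give, and an adjusted p of 0.039 over the 111 arms. The mean difference, second minus first, ran from -8.21 percentage points in let-7g to -46.1 in let-7e. Without both untreated libraries the share was still lower in the second time course at the other 5 time points in 8 of 8 members.

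The members differed in how far they were shortened. In the untreated library of the first time course, 89.7% of let-7e and 82.3% of let-7f tags were 18 or 19 nt long, against 29.9% of let-7g. In the 24 h library of the same time course these values were 13.1%, 8.03% and 0.724%. For let-7a and let-7c they were 80.5% and 34.5% in that untreated library, where the 18 nt tag that was split equally between them held 63.7% of let-7a and 28.2% of let-7c counts. Since let-7c is the more abundant, an equal split can raise the short share of let-7a and lower that of let-7c, so this pair is not ranked here. In the second time course let-7f ranged from 0.719% to 2.78% and let-7g from 0.0728% to 0.375%. The balance between 18 nt and 19 nt also differed between members. Here let-7a and let-7c are not separate observations, because their 18 nt tag is 1 sequence that was split equally. let-7a, let-7b, let-7c, let-7d, let-7e and let-7f, with U at base 18, each had a higher share of their short tags at 18 nt than let-7g and let-7i, with C at base 18, within 6 of 6 libraries of the first time course. The smallest gap was in the 24 h library, with 21.2% for let-7b and 16.9% for let-7g. In the second time course this held in 2 of 6 libraries, the untreated and the 6 h library. In the other 4 let-7b lay below let-7g or let-7i. The levels varied between libraries, and let-7d at 3 h in the first time course, at 14.3%, was below let-7g at 24 h. miR-98 has U at both base 18 and base 19, and 33.6% of its short tags in the first time course and 41.7% in the second were of 18 nt.

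Longer tags had their own pattern. In the first time course the main lengths of the family's 5p counts were 20 nt at 1 h (48.9%), 3 h (46.0%) and 6 h (58.5%) and 21 nt at 0.5 h (45.9%) and 24 h (44.1%). In the second, 20 nt and 22 nt together held most counts, with 37.6% to 43.7% at 20 nt and 33.9% to 50.3% at 22 nt. The untreated and 6 h libraries of the second time course had 18.2% and 19.2% of family counts at 21 nt and the other 4 had 8.03% to 8.75%. The 5′ end did not share this variation: for the 8 members tested, at least 99.0% of counts in every library began at the main start. No member was higher or lower at 6 of 6 time points, where 15 of the 111 arms were higher and 12 lower.

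**Figure D3:**
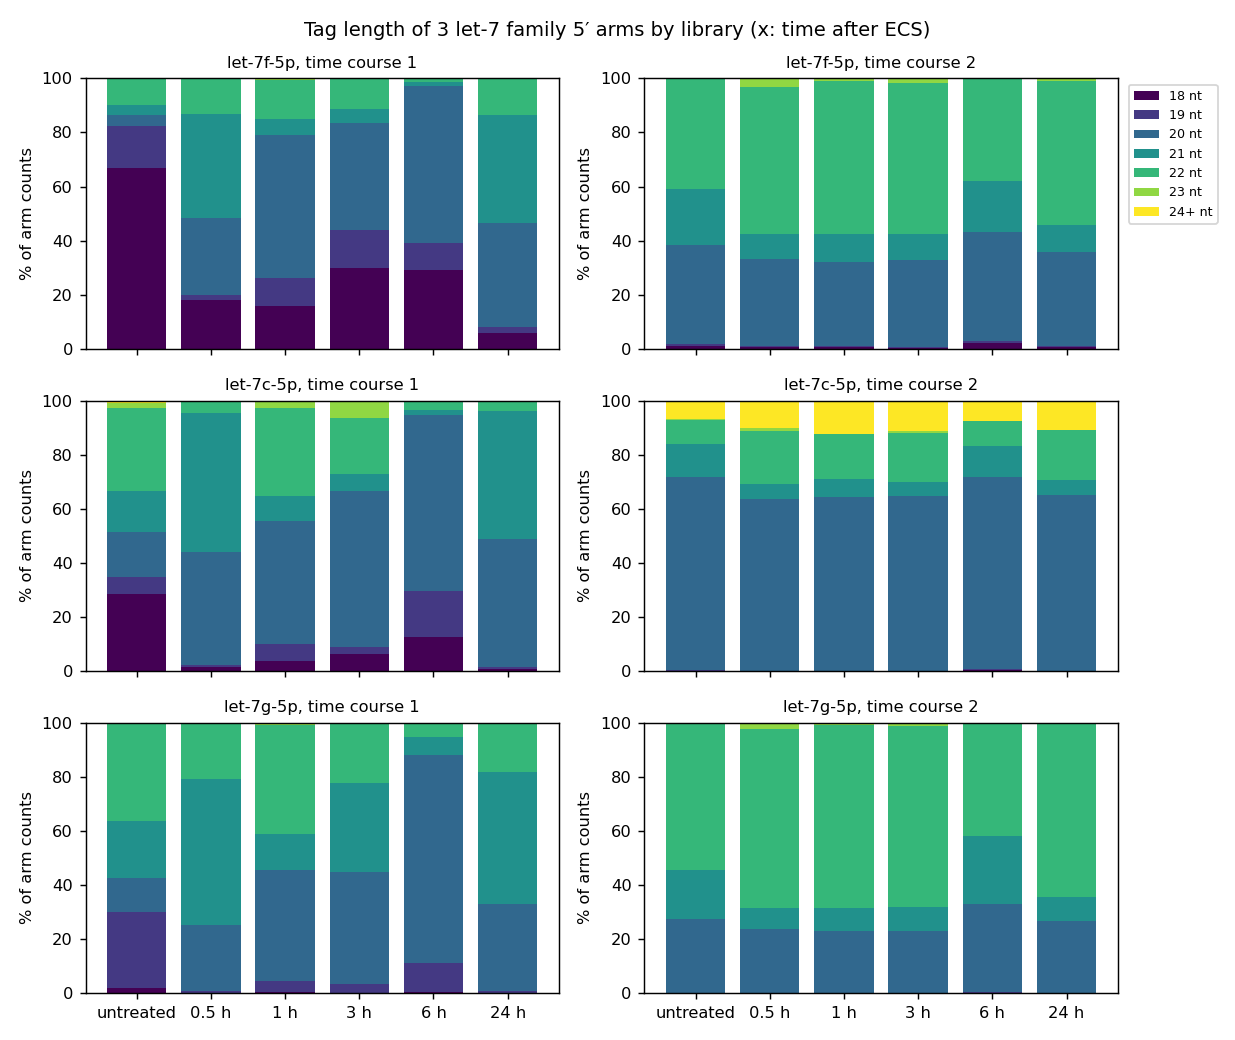
Percent of an arm's counts (y) in tags of each length (colours) for let-7f, let-7c and let-7g (rows) in the first (left) and second (right) time course, by time after ECS (x). Tags of 18 nt hold most of let-7f in the untreated library of the first time course (66.8%) and few of let-7g there (1.79%), and tags of 22 nt are common in the second time course.

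A single untemplated U at the 3′ end of the 5p arm, counted among exact tags plus tags with that U, was rarer in the second time course at 6 of 6 time points in 5 of the 8 members tested: let-7a, let-7c, let-7d, let-7f and let-7g. This was so in 17 of 111 arms (15.3%). Each had an exact permutation p of 0.03125, and none passed after adjustment over the 111 arms (adjusted p = 0.10). let-7f carried the added U on 1.62% to 4.81% of these tags in the first time course and 0.484% to 0.884% in the second, and let-7g on 0.834% to 4.73% and 0.121% to 0.233%. let-7i had 2.41% to 10.04% and 2.64% to 11.8%, which overlapped. An untemplated A was rarer at 6 of 6 time points in 1 of the 8 members, let-7c, and in 4 of 111 arms (3.6%). Without both untreated libraries it was rarer at the other 5 time points in 3 of the 8 members and in 9 arms.

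An untemplated U was also counted on the 3p arms. Pooled over the 12 libraries, the percent of 3p counts with 1 untemplated U was 65.6 in let-7f, 40.3 in let-7a, 38.1 in let-7c, 28.5 in let-7i and 27.3 in let-7g. In let-7b the counts with and without it were equal, at 104 each. It was 11.9 in let-7e, 6.17 in miR-98 and 0.319 in let-7d. Over the 240 3p arms of all miRNAs with at least 50 counts, exact and U-ending together, the median was 4.86% and the upper quartile 11.98%. A level of 25%, chosen after the values were seen, was exceeded by 6 of the 9 members and by 17 of the 240 arms (7.08%). let-7a and let-7c are among the 6 through the tags shared by let-7a-1 and let-7c-2, so they are not separate results. The counts were small, 40 to 624 exact counts per member, so the intervals that follow are exact 95% binomial intervals, which cover counting error only.

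The tags concerned are shown because in each locus 1 tag held most of the counts with an untemplated U. The added T is in capitals, and counts are those of the 12 libraries.
let-7a-1 and let-7c-2: ctatacaatctactgtctttcT
let-7b: ctatacaacctactgccttccT
let-7f-2: ctatacagtctactgtctttcT
let-7f-1: ctatacaatctattgccttccT
let-7e: ctatacggcctcctagctttcT
let-7g: ctgtacaggccactgccttgcT
let-7i: ctgcgcaagctactgccttgctT

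The tag shared by let-7a-1 and let-7c-2 was counted 231 times, in 11 of the 12 libraries. The tag with the genomic C in place of the T was counted 41 times and those with the other untemplated bases 2 times. For let-7b the T tag was counted 83 times, against 1 for the genomic C and 6 for the other untemplated bases. For let-7f-2 it was 54 against 0 and 0, and for let-7f-1 22 against 1 and 1. For let-7g it was 14 against 0 and 0. let-7e differed, with 38 T tags against 193 with the genomic C. In let-7i the genomic base is A, and the T tag was counted 87 times against 11. An added U and a change of the C to U give the same tag and cannot be told apart in the loci where the genomic base is C.

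By locus, the percent of 3p counts with an untemplated U was 81.7 in let-7f-2 (interval 70.7 to 89.9) and 44.4 in let-7f-1 (30.9 to 58.6), and in the shared tags of let-7a-1 and let-7c-2 it was 40.6 (36.7 to 44.6). In let-7c-1 it was 0 of 20 counts, with an upper bound of 16.8. let-7a-2, with 2 exact counts, was too rare to give a percent. For let-7d, whose untemplated U was nearly absent at 2 counts, the hairpin itself encodes a U at base 22 of the arm.
let-7d: ctatacgacctgctgcctttct
This tag held 311 of the 624 exact let-7d 3p counts. A U added after base 21 could not be counted there, because it gives the same letters as the genome. The share differed between the time courses, at 34.5% in the first and 55.0% in the second for the shared let-7a-1 and let-7c-2 tags, 45.7% and 55.4% for let-7b, 14.2% and 39.0% for let-7i, and 16.7% and 66.7% for let-7f-1. let-7g had 6 counts with the U beside 24 exact counts in the first and 9 beside 16 in the second. For let-7e it was 10.1% and 13.2%, for let-7f-2 85.7% and 81.3%, for miR-98 13.5% and 0%, and for let-7d 0.529% and 0%. let-7f-2 was the highest in both, and the order of let-7f-1 and the shared let-7a-1 and let-7c-2 tags turned. Both statements rest on few counts. In the first time course let-7f-2 had 6 counts with the U beside 1 exact count, and let-7f-1 had 4 beside 20. In the second they had 52 beside 12 and 20 beside 10. The miR-98 value of the first time course was 5 counts beside 32.

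**Figure D4:**
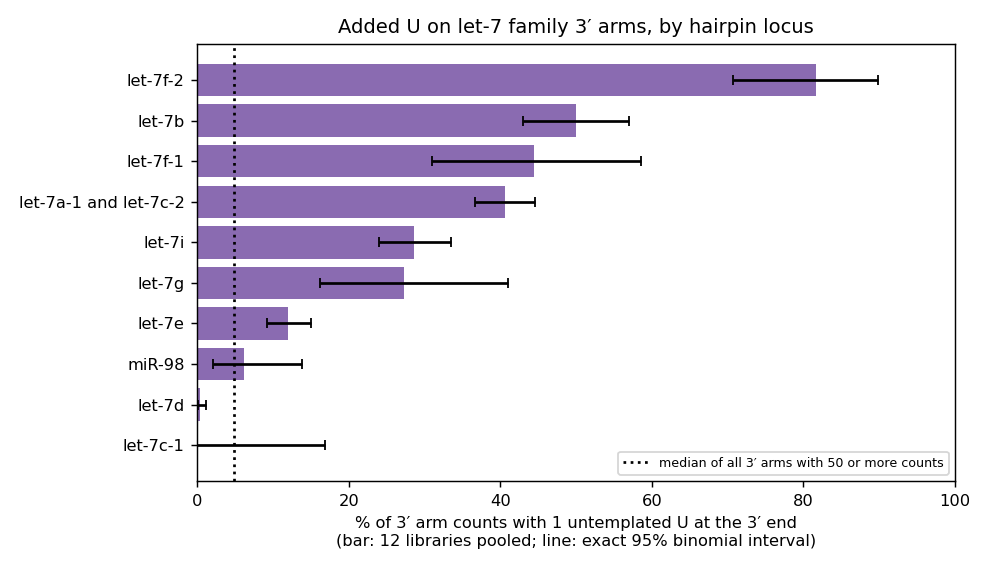
Percent of 3p counts with 1 untemplated U (x, linear) for each hairpin locus of the let-7 family with at least 10 counts (y), pooled over 12 libraries; lines are exact 95% binomial intervals and the dotted line is the median of 240 3p arms (4.86%). let-7f-2 is highest at 81.7% and let-7d, let-7c-1 and miR-98 lie near or below 6.2%.

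Tags that miss a member by 1 base bear on the rare members, because 4 pairs of members are themselves 1 base apart. Within the first 20 nt of tags with the let-7 seed, let-7b is reached from let-7c by A17G. In the first time course the let-7b sequence was counted 27144 times, and the next most frequent base at that position of let-7c (A17C, a sequence of no member) 1550 times. In the second time course let-7b was counted 169392 times and the sequence with A17T, again of no member, 213049 times. The ratio of let-7b to the most frequent other base was 13.5 to 24.97 across the libraries of the first time course and 0.548 to 0.998 across those of the second. In the second time course, then, a sequence that is no annotated member was more frequent than let-7b in 6 of 6 libraries.

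let-7a, reached from let-7c by G19A, stood in a similar position to a smaller extent. It was 6.76 to 17.2 times as frequent as the next base in the first time course and 1.957 to 4.401 times in the second, where G19T was counted 155743 times. Reached from let-7f by A12G, let-7a was 6.50 to 26.1 times and 4.59 to 18.2 times as frequent as the next base. let-7e, reached from let-7a by T9G, was 7.10 to 26.0 times and 55.1 to 205 times as frequent as the next.

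The sequences concerned were not spread evenly over the arm. In let-7c, tags with 1 substitution that match no member amounted, at positions 15 to 20 together, to 12.9% of the let-7c count in the first time course and 26.7% in the second. At positions 9 to 14 they amounted to 12.3% and 5.20%. The change was in A17T (0.175% to 9.06%), G19T (1.08% to 6.62%) and T16G (0.152% to 4.31%). For each of these 3 the lowest library of the second time course was above the highest of the first. A17T and T16G were also frequent relative to let-7e in the second time course (14.7% and 7.91%) and to let-7a (4.14% and 2.85%), where the first time course had at most 0.438%. let-7f and let-7g had 0.513% or less of either there, and at positions 15 to 20 they had 13.7% and 11.5% in the first time course and 5.99% and 7.23% in the second. In let-7g position 12 was the most frequent, with 8.24% in the first time course and 4.23% in the second. There T12G, which is 1 base from let-7a as well as from let-7g, was counted 123805 times in the second time course.

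**Figure D5:**
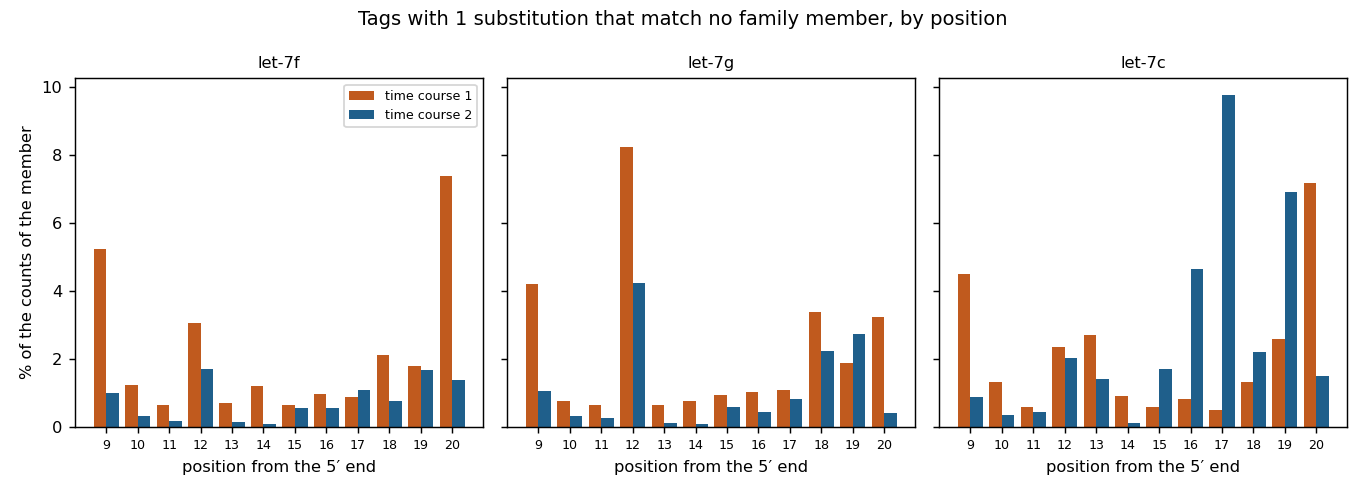
Counts of tags with 1 substitution that match no let-7 family member, as a percent of the counts of the member itself (y, linear), at positions 9 to 20 from the 5′ end (x) for let-7f, let-7g and let-7c. let-7c at positions 16, 17 and 19 is higher in the second time course, with 9.76% at position 17 against 0.481% in the first.

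Tags of 25 nt were a second feature of let-7c in the second time course. The let-7c and let-7b forms are shown, with the letters after the 22 nt of the mature sequence in capitals.
let-7c, 25 nt: tgaggtagtaggttgtatggttTTG
let-7b, 25 nt: tgaggtagtaggttgtgtggttTTG
The let-7c tag matches the let-7c-2 hairpin exactly and was therefore counted as let-7c, 296 times in the first time course and 202382 times in the second. It is not encoded by let-7c-1. Tags of 25 nt made up 0.0342% to 0.745% of let-7c-5p in the first time course and 6.66% to 11.7% in the second, without overlap. The same 3 letters after the other members are in none of their hairpins and were not counted for them, yet the tags were there. In the second time course such tags amounted, relative to the 22 nt tag of the same member, to 122% for let-7b, 57.6% for let-7e, 17.6% for let-7a and 14.9% for let-7d. For let-7c it was 58.9%, for miR-98 7.94%, for let-7i 7.45%, for let-7f 1.30% and for let-7g 0.562%. In the first time course it was 1.57% or less in all 9. Another run of letters, TCTTA, that no hairpin holds followed all 9 members as well, at 1.37% (let-7g) to 17.002% (let-7e) of the 22 nt tag in the second time course. Whether these letters belong to the RNA or to the library was not tested.

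Altogether, reads with GAGGTAG at bases 2 to 8 made up 2.69% to 12.4% of accepted reads in the first time course and 31.6% to 48.3% in the second. Of all 18126564 such reads, 73.9% matched a member's hairpin exactly, and 0.0023% another annotated hairpin. A further 10.4% had the first 18 nt of a member followed by letters that no member has, and 8.86% had 1 substitution within positions 9 to 20. The remaining 6.87% differed more. The exact share was lowest in the 6 h library of the first time course (44.96%) and highest in the untreated library of the same time course (83.7%).

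Across the 12 libraries the members did not keep constant proportions. Likeness was measured as the SD of the log2 ratio of 2 arms over the 12 libraries, so that 0 means constant proportion. This is a description, since all points share their libraries. let-7a and let-7d were the most alike (0.29), then let-7a and let-7b (0.38), let-7b and let-7d (0.47), and let-7f and miR-98 (0.49). Closeness in the genome was found among like and unlike pairs. let-7a, let-7d and let-7f have loci in exons of 1 noncoding gene, and let-7f and miR-98 have loci in Huwe1, but let-7b is made from other loci than let-7a and let-7d. let-7b and let-7c, 622 bp apart in Lncppara, were at 0.75. let-7g was nearest to let-7c, at 0.78. Likeness was also measured to all 212 arms that reached 10 counts in all libraries. Outside the family, miR-495-3p (0.49), miR-26a-5p (0.58) and miR-342-3p (0.61) were nearest to let-7f. For let-7g they were miR-409-5p (0.67), miR-185-5p (0.80) and miR-495-3p (0.83). The median over the 212 arms was 1.45 for let-7f and 1.83 for let-7g.

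Some miRNAs of other families neighbour let-7 loci in the genome. Of the 5p arms of miR-99a, miR-99b, miR-100, miR-125a and miR-125b, 1 of 5 was higher in the second time course and none lower in the edgeR fit, beside 19.6% and 12.6% of all arms. miR-125a was higher (log2 fold change 2.19, SE 0.61, adjusted p = 0.016). miR-99a, whose hairpin is 657 bp from let-7c-1, had a fold change of -1.39 (SE 0.53, adjusted p = 0.059), where let-7c had 1.69. miR-99b, 95 bp from let-7e, had -0.72 (SE 0.60, adjusted p = 0.36), where let-7e had -0.43. In percent of miRNA counts, miR-99a had the lower and let-7c the higher value in the second time course at each of the 6 time points.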

How the data were processed

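Small RNA was size-selected, ligated to adapters and sequenced on an Illumina Genome Analyzer from 12 hippocampi. The deposited files list, per the labels and methods, each distinct tag with its count after the authors removed the adapters; molecules carried no identifiers, so intervals cover counting error only. Here tags of 18 to 34 nt were matched exactly over their whole length to GENCODE M21 hairpins (GRCm38; the authors mapped to NCBI assembly 37), loci of a name were joined, and tags of several names were split equally. Arms with 10 counts in 2 libraries were tested with edgeR 4.0.16 (TMM, quasi-likelihood, Benjamini-Hochberg adjustment over all 470 arms; rounded counts), and DESeq2 1.42.0 was an alternative. Samples of the same number share a time course. Their deviations correlated in 15 of 15 pairs of time points (r 0.36 to 0.81, 212 arms), so the numbers pair the samples. Both tools were tested on simulated data. Alternatives covered scaling, filters, tag rules and left-out libraries. The members, gene lists and tests were chosen with earlier results of these data known. Fold changes are named for the 9 5p arms between time courses and for let-7c, let-7f and let-7g after ECS.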

Additional observations from a re-analysis of the deposited data

Results flagged for a closer look

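In 7 of 38 sets of 6 libraries, 1 library was set far apart from the other 5 by the size of its gap to the nearest; chance does this in about 1 set in 20. All 7 were percentages of short tags (18 or 19 nt), and members share their libraries, so the 7 are not independent. In 6 of them the 6 h library of the second time course, the shallowest of the 12 in accepted reads, was the highest: 2.68% in let-7a (0.362% to 1.15% in the other 5), 0.555% in let-7c (0.0800% to 0.249%), 5.04% in let-7e (0.535% to 1.73%), 0.375% in let-7g (0.0728% to 0.135%), 8.03% in let-7i (0.620% to 1.69%) and 6.58% in miR-98 (1.53% to 2.66%). In the first time course the untreated library was set apart for let-7g, with 29.9% against 0.724% to 10.99%.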

How the results depend on the processing

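Between the time courses, 151 arms and 7 members were called. The arms called fell to 85 with 10 counts required in every library and to 100 with tags of 21 nt or more, and fewer arms were tested in both. Members called fell to 4 with scaling to the total miRNA count and to 3 with tags of 21 nt or more, where let-7b turned to -0.31. Leaving out 1 library gave 95 to 158 arms, the lowest without the 1 h library of the first time course, and 4 to 7 members, with 4 without either 3 h library, either 24 h library or the 1 h library of the second time course. Without both untreated and both 6 h libraries, chosen after seeing the data, 147 arms and 7 members were called. After ECS, DESeq2 called 1 arm at 0.5 h and 2 at 3 h, and the fit without a filter on low counts called 1 at 3 h; the main count was 0 at each time, and the replicate block changed no call. Signs that turned belonged to values that passed no test. With tags of 21 nt or more, let-7c was at -0.012 at 0.5 h, -0.48 at 1 h and -1.25 at 6 h. With the total count, let-7g was at 0.012 at 1 h, let-7f at -0.13 at 3 h and let-7c at -0.33 at 6 h. At 6 h let-7c was also at -0.25 without a filter and at -0.045 with the first 18 nt. Under the replicate block let-7g was at 0.76 at 0.5 h and 0.15 at 1 h, and let-7c at -0.0086 at 6 h. Leaving out 1 library moved let-7c from -1.78 to 1.56 at 6 h, -0.39 to 2.67 at 3 h and -0.52 to 1.70 at 1 h. It moved let-7f from -0.98 to 0.89 at 0.5 h, -0.99 to 0.73 at 1 h, -1.47 to 1.57 at 3 h, -1.69 to 1.94 at 6 h and -1.201 to 1.84 at 24 h. For let-7g the ranges were -1.32 to 3.10, -1.96 to 3.13, -1.33 to 4.05, -3.38 to 3.09 and -1.11 to 3.65. As a percent of accepted reads, the 5p share of the family was 5.22% and 30.6% in place of 19.5% and 53.3%. An untemplated A was lower at every time point in 4 arms and 1 member, and in 4 to 9 arms and 1 to 3 members without one time point, most without the untreated libraries. Where not stated, the cause was not tested.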
